A study of Mus musculus with 9 samples.

Results

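The genes described here mostly encode carriers of the inner mitochondrial membrane, porins of the outer membrane and machinery that imports proteins into mitochondria. They were selected by symbol as the protein-coding genes of the deposited table named Slc25a, Timm, Tomm, Mpc or Vdac with a number, and they number 72 of 21676 genes. A further row with a matching name, Tomm6os, is non-coding and was left out. They comprise 43 Slc25 carriers, 24 Timm and Tomm import genes, 2 pyruvate carrier subunits and 3 porins, and 68 of them had enough reads to be tested. The cells were B16, an established melanoma line of the mouse, cultured in DMEM with serum. A control hairpin (titled shCotrol), the hairpin shAD4-1 and the hairpin shAD4-2 each gave 3 libraries. The study is titled for the adhesion receptor ADGRL4, and its design text calls the hairpin groups knockdown derivatives and the libraries of a group biological replicates. The labels name no drug, no stress treatment and no other allele in any group, and they do not say whether a derivative is a clone or a pool. The p-values therefore measure the spread between libraries of a single derivative line per hairpin. Adgrl4 itself was not analysed here.

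Most mitochondrial proteins are made in the cytosol and enter through the translocase of the outer membrane (TOM), whose receptors hand precursors to a channel. Proteins with an N-terminal presequence then pass through the TIM23 complex into the matrix, while the hydrophobic carriers are escorted by small TIM chaperones across the intermembrane space to the TIM22 complex, which inserts them into the inner membrane. The SLC25 carriers exchange nucleotides, phosphate, carboxylates, amino acids, cofactors and iron across that membrane, the mitochondrial pyruvate carrier brings in pyruvate, and the porins (VDAC) are the main metabolite channels of the outer membrane.

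The libraries held 31.3 to 36.9 M reads in genes. Levels are given as reads scaled to library size with TMM factors (CPM), with means ± SD over n = 3 libraries, and levels of different genes are compared only as FPKM, which corrects for gene length. All 9 melanocyte markers were detected, with Dct at no less than 1983 FPKM in any library. Their summed level was 4708 to 5435 FPKM in control, 4078 to 4178 in shAD4-1 and 4464 to 4877 in shAD4-2, where it overlapped control. At an adjusted p under 0.05 in the edgeR test described below, 7 of the 9 were lower than control and 0 higher with shAD4-1. Of all tested genes 32.3% were lower and 32.7% higher in that comparison. With shAD4-2, 2 of the 9 were lower and 3 higher, beside 34.8% and 34.2% of all tested genes. In shAD4-2 against shAD4-1, 6 were higher and 0 lower, beside 13.4% and 14% of all tested genes. The leukocyte markers Ptprc and Cd3e did not exceed 0.02 FPKM in any library, but the summed level of the 5 leukocyte markers in the table was 2.64 to 3.09 FPKM in control, 5.91 to 6.65 in shAD4-1 and 6.68 to 7.31 in shAD4-2, most of it Cd68 and Lyz2. The 5 fibroblast markers in the table summed to 0.807 to 1.02, 1.65 to 1.94 and 1.98 to 2.27 FPKM in the same order. The 4 endothelial markers summed to 0.0928 to 0.126, 0.121 to 0.141 and 0.192 to 0.216 FPKM, with shAD4-1 overlapping control and shAD4-2 above it. Genes encoded in mitochondrial DNA held 2.45 ± 0.16% of the control reads, 3.74 ± 0.1% of those of shAD4-1 and 3.72 ± 0.15% of those of shAD4-2. The part of these shifts in the results was not tested, except that with the mitochondrially encoded genes left out the same test called 42 and 53 of these genes against control, close to the 41 and 52 given next. In bulk RNA a shift in the kinds of cells present and a change of RNA within cells cannot be told apart.

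Against control, genes of the import machinery were mostly higher or not called, and carriers moved in both directions. With shAD4-1, 41 of the 68 tested genes passed the threshold, which was an adjusted p under 0.05 (edgeR quasi-likelihood test, Benjamini-Hochberg over all 13807 tested genes), and 28 were higher and 13 lower. Of all tested genes 65% passed in that comparison, 32.7% higher and 32.3% lower. With shAD4-2, 52 of 68 passed, 31 higher and 21 lower, beside 69% of all tested genes, 34.2% higher and 34.8% lower. The median log2 fold change of the 68 was 0.06 with shAD4-1 and 0.09 with shAD4-2, and that of all tested genes was -0.01 in either comparison. These medians depended on the fit: with shAD4-1 it was 0.09 without shAD4-1 replicate 1 and 0 in limma on FPKM with no filter, and with shAD4-2 it was 0.0069 in that limma fit. Both comparisons use the same control libraries, so they are not independent.

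Among the 23 tested Timm and Tomm genes 12 rose and 2 fell with shAD4-1, with a median log2 fold change of 0.21, and 14 rose and 2 fell with shAD4-2, with a median of 0.31. The 40 tested Slc25 carriers split more evenly, 12 higher and 11 lower with shAD4-1 (median 0.01) and 13 higher and 19 lower with shAD4-2 (median -0.14). In the same order of hairpins, 60.9% and 69.6% of the import genes and 57.5% and 80% of the carriers passed. For all tested genes the shares were 65% and 69%. Changes were mostly small. With shAD4-1, 1 called gene rose and 1 fell by 2-fold or more, where 5.99% and 6.2% of all tested genes did. With shAD4-2 the counts were 2 and 2, beside 6.39% and 8.34%. The import transcripts summed to 908 ± 15 FPKM in control, 1036 ± 18 in shAD4-1 and 1053 ± 22 in shAD4-2, and the carriers to 1428 ± 18, 1391 ± 12 and 1365 ± 8.9 FPKM. The deposited FPKM are scaled to raw totals. Divided by the TMM factors, the import sums were 885 ± 18, 1051 ± 17 and 1066 ± 23, and the carrier sums were 1390 ± 11, 1411 ± 11 and 1382 ± 9.7, so that on this scale the carrier sums of both hairpins overlapped those of control. These sums were not tested. The plot of fold changes by role shows 67 of the 68 tested genes.

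**Figure D1:**
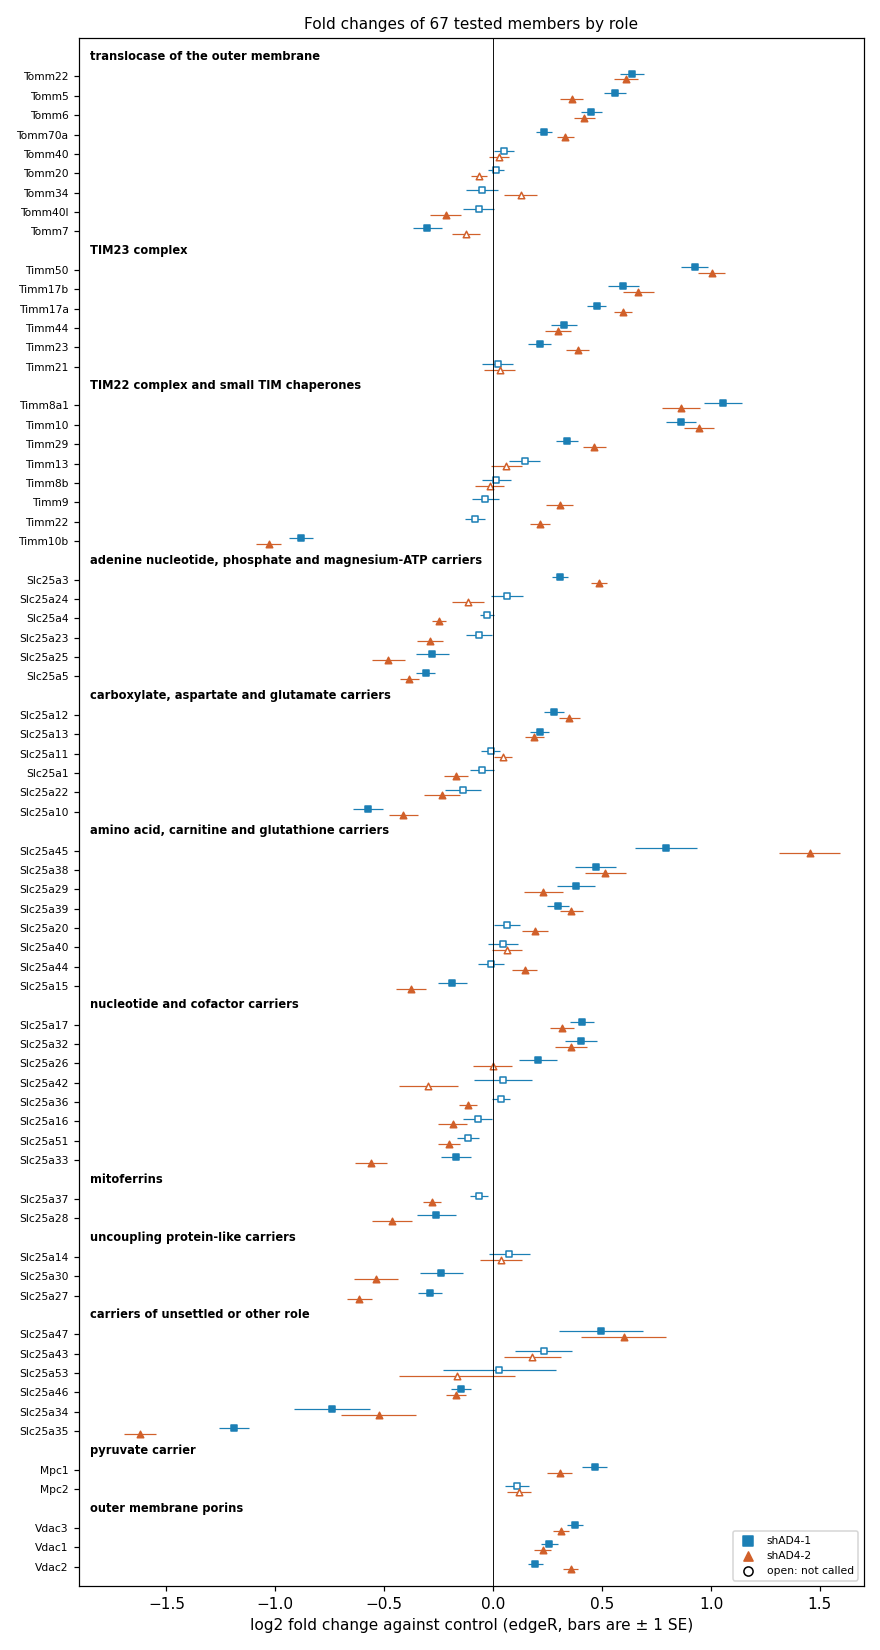
Log2 fold change against control (x axis) of 67 of the 68 tested genes, grouped by role, with squares for shAD4-1 and triangles for shAD4-2, bars of 1 SE, and open symbols for genes that did not pass the threshold. Of the 6 TIM23 genes 5 lie to the right of 0 with filled symbols for either hairpin, while Timm10b and Slc25a35 are the genes farthest to the left of their groups.

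The remaining 4 genes had too few reads for a test. Slc25a2, an ornithine carrier, had 17, 11 and 5 reads summed over the control, shAD4-1 and shAD4-2 libraries, and Timm8a2, a relative of Timm8a1, had 1, 4 and 1. Slc25a41 and Slc25a48 had 1 read each in all 9 libraries. No fold is given for these 4.

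The promoter windows of 6 of these genes, which include the largest changes of the import machinery, are printed here so that their sequences stand beside the values that follow. They are RefSeq windows of the build GRCm38.p6 (the authors used GRCm39), from 250 bases before to 50 bases after the annotated start, on the strand of the gene. They lie at chr7:28311997-28312296 on the minus strand (Timm50), chr14:32201842-32202141 minus (Timm23), chr2:84826771-84827070 plus (Timm10), chrX:134541621-134541920 minus (Timm8a1), chr7:105640195-105640494 plus (Timm10b) and chr10:91123918-91124217 minus (Slc25a3). Capitals mark matches, on either strand, to 6 motifs of factors known to act at many promoters: the NRF1 palindrome, CCGGAAGT (ETS factors), CACGTG (E-box), AAGATGGCG (YY1), TGACGTCA (CRE) and CCAAT.
Timm50: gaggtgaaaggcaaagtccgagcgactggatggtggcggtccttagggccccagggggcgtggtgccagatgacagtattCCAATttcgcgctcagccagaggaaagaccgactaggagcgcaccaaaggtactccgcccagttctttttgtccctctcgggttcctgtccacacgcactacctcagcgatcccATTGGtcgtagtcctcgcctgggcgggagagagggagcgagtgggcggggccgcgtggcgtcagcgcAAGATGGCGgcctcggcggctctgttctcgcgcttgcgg
Timm23: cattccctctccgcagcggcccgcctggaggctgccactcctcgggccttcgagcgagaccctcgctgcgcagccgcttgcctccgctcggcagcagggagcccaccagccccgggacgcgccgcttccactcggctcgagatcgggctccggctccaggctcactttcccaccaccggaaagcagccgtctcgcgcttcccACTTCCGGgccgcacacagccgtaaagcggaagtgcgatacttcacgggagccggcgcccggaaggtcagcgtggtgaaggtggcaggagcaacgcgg
Timm10: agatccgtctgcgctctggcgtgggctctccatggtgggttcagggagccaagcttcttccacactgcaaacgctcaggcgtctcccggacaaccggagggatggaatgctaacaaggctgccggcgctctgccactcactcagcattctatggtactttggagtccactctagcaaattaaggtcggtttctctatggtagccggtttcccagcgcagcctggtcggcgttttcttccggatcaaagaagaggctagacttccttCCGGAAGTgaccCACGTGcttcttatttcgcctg
Timm8a1: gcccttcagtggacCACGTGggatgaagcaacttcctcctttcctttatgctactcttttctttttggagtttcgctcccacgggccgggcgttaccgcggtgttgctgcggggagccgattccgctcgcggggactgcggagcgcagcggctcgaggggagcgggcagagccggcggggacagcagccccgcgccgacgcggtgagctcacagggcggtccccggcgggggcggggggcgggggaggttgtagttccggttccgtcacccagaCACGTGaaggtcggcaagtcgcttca
Timm10b: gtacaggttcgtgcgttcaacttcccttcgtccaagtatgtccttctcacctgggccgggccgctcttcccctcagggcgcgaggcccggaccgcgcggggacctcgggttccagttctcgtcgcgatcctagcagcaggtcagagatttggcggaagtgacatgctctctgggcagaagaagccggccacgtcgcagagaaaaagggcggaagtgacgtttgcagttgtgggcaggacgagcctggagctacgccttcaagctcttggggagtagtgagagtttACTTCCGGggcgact
Slc25a3: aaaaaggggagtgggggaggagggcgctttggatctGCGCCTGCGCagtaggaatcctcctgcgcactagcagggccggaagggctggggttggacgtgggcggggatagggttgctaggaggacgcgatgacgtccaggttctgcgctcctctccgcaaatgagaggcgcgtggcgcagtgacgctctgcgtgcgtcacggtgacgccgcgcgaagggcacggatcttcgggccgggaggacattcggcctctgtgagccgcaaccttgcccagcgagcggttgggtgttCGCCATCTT
Timm50 and Slc25a3 hold the YY1 letters, downstream of the start in both, Timm10, Timm10b and Timm23 hold the ETS letters, and Timm10 and Timm8a1 hold E-boxes. Timm10b, which fell, and Timm10, which rose, both carry the ETS letters within the 50 bases after the start. Windows were found for 56 of the 72 genes, 69 windows in all. The ETS letters were in 10.1% of these and in 3.89% of all 32851 windows, the E-box in 15.9% and 7.15%, YY1 in 2.9% and 1.4%, NRF1 in 4.35% and 4.6%, CRE in 2.9% and 1.79%, and CCAAT in 42% and 37.4%. A match describes letters in a window and shows no binding, and no test was made of these shares. The motifs were chosen with earlier results of these data known.

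Of the 6 genes of the TIM23 complex, the presequence translocase, 5 rose with shAD4-1 and 5 with shAD4-2, and 0 fell. That is 83.3% called with either hairpin, beside 65% and 69% of all tested genes, of which 32.7% and 34.2% were higher. Timm50, the receptor that receives presequence proteins from the outer membrane, stood at 33.1, 27.4 and 28.8 CPM in the control libraries, at 58.7, 56 and 54.8 CPM with shAD4-1 and at 60.0, 60.5 and 58.3 CPM with shAD4-2. No hairpin library fell to the level of a control, and the hairpin groups overlapped each other. The log2 fold change was 0.93 (SE 0.06, adjusted p = 3.31e-10) with shAD4-1 and 1.00 (SE 0.06, adjusted p = 9.05e-11) with shAD4-2. Timm17a, a channel subunit, rose from 63.3 ± 1.44 to 88 ± 2.21 and 95.7 ± 2.56 CPM, by 1.39-fold and 1.51-fold. Its paralog Timm17b rose by 1.51-fold and 1.59-fold from a lower level, so that the FPKM ratio of Timm17a to Timm17b overlapped between all groups, at 5.88 ± 0.56 in control, 5.4 ± 0.5 in shAD4-1 and 5.57 ± 0.07 in shAD4-2.

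Timm23, which forms the presequence channel with Timm17, was at 46.4, 46.4 and 46 CPM in control, 54.2, 53.7 and 53.2 CPM with shAD4-1 and 64.9, 56.1 and 60.5 CPM with shAD4-2. The control libraries lay within 1 CPM of each other and below every hairpin library, with log2 fold changes of 0.21 and 0.39 (adjusted p = 0.00194 and 3.84e-06). Timm44, which tethers the import motor to the channel, rose from 39.5 ± 2.66 to 49.5 ± 0.785 and 48.6 ± 2.97 CPM. The exception was Timm21, which contacts the outer membrane translocase, at 22.8 ± 1.65, 23.1 ± 0.716 and 23.3 ± 1.08 CPM. Its log2 fold changes were 0.02 (95% interval -0.12 to 0.16) and 0.03 (-0.11 to 0.17). Because Timm50 changed more than Timm23, the FPKM ratio of Timm50 to Timm23 went from 0.634 ± 0.063 in control to 1.04 ± 0.027 in shAD4-1 and 0.975 ± 0.078 in shAD4-2, with no overlap with control.

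The TIM22 complex and the small TIM chaperones had 8 of 9 genes tested, 3 higher and 1 lower with shAD4-1 and 5 higher and 1 lower with shAD4-2. Called were thus 50% and 75% of the 8, beside 65% and 69% of all tested genes. Timm10 works as a chaperone together with Timm9. It was at 12.6, 13.3 and 14 CPM in control, 24.9, 24.2 and 23.5 CPM in shAD4-1 and 25.5, 25.6 and 25.8 CPM in shAD4-2, rising by 1.82-fold and 1.93-fold (adjusted p = 2.87e-09 and 6.81e-10). Timm9 did not follow with shAD4-1: it stood at 31.8 ± 0.705 CPM in control and 31 ± 2.42 CPM in shAD4-1, a log2 fold change of -0.04 (95% interval -0.16 to 0.09), and at 39.3 ± 0.613 CPM in shAD4-2, where it rose by 0.31. The FPKM ratio of Timm10 to Timm9 was 0.825 ± 0.046 in control against 1.55 ± 0.13 with shAD4-1 and 1.29 ± 0.021 with shAD4-2, with no overlap between any groups.

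Timm8a1, which encodes the protein lost in the human deafness-dystonia syndrome and pairs with Timm13, gave 10.7, 11.7 and 13 CPM in control, 25.5, 23.6 and 24.6 CPM in shAD4-1 and 19.4, 23.2 and 22 CPM in shAD4-2. It was the gene past 2-fold upward with shAD4-1, at a log2 fold change of 1.05 (SE 0.09, adjusted p = 4.12e-09), and it rose by 0.86 with shAD4-2. Timm13 overlapped between groups, at 67.6 ± 7.78, 74.7 ± 4.36 and 70.5 ± 5.01 CPM, as did Timm8b. Timm8b was nevertheless the most abundant import transcript per length, at 131 ± 12 FPKM in control. Reads shared among near-identical paralogs could not be told apart here.

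Timm10b, which docks the small TIM chaperones at the TIM22 complex, was the import gene that fell with both hairpins. Its values were 60.0, 63.2 and 58.3 CPM in control, 33, 32.5 and 32.9 CPM in shAD4-1 and 31.2, 28 and 29.5 CPM in shAD4-2, 1.84-fold and 2.04-fold lower (adjusted p = 1.25e-10 and 1.40e-11). All 3 groups were separate. In the RefSeq table Timm10b overlaps Dnhd1, a dynein heavy chain domain gene, over 4973 bases. Dnhd1 was lower too, at 106 ± 1.94, 89.6 ± 5.16 and 68.6 ± 3.96 CPM, with log2 fold changes of -0.25 and -0.63. The overlap is that of the gene spans, introns included, and shared exon sequence was not computed. The use of strand in counting is not stated, so whether reads of either gene were counted for the other is not known. Timm22, the insertion channel itself, was at 58.4 ± 0.968, 55.1 ± 0.504 and 67.8 ± 1.84 CPM. It rose with shAD4-2 (log2 fold change 0.22, adjusted p = 3.41e-04), while with shAD4-1 the log2 fold change was -0.08 (95% interval -0.17 to 0.01). Timm29, a further subunit of TIM22, rose by 0.34 and 0.47.

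In the outer membrane translocase 4 of 9 genes rose and 1 fell with shAD4-1, and 4 rose and 1 fell with shAD4-2. The share called, 55.6% with either hairpin, was below the 65% and 69% of all tested genes. The main receptor and channel genes moved unequally. Tomm22, the central receptor that also organises the complex, gave 73.7, 68.4 and 70.1 CPM in control, 110.3, 109.8 and 110.2 CPM in shAD4-1 and 106, 118 and 99.5 CPM in shAD4-2. All hairpin libraries lay above all controls, with log2 fold changes of 0.64 and 0.61 (adjusted p = 7.12e-09 and 1.15e-08). Tomm70a, the receptor for carrier precursors, rose from 249 ± 7.9 to 293 ± 9.16 and 313 ± 2.79 CPM, by 1.18-fold and 1.26-fold. Tomm20, the presequence receptor, was at 223 ± 8.07, 225 ± 3.58 and 213 ± 4.68 CPM, with log2 fold changes of 0.01 (95% interval -0.06 to 0.09) and -0.07 (-0.14 to 0.01). Tomm40, the channel, was at 71.4 ± 2.64, 73.9 ± 2.18 and 72.7 ± 2.84 CPM, with intervals of -0.04 to 0.14 and -0.07 to 0.12. The FPKM ratio of Tomm22 to Tomm20 was 1.55 ± 0.11 in control, against 2.38 ± 0.035 with shAD4-1 and 2.47 ± 0.21 with shAD4-2.

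The small TOM subunits stabilise the channel. Tomm5 rose from 40.4 ± 1.2 to 59.5 ± 2.66 and 51.8 ± 1.55 CPM, and Tomm6 from 47.6 ± 0.837 to 65.1 ± 1.85 and 63.6 ± 1.44 CPM. The gene span of Tomm6 overlaps Usp49 over 95 bases and Frs3 over 780 bases in the RefSeq table, so its reads may include theirs. Tomm7 went the other way with shAD4-1, at 67.1, 70.5 and 72.4 CPM in control and 56.9, 51.8 and 61.4 CPM in shAD4-1 (log2 fold change -0.30, adjusted p = 5.56e-04). With shAD4-2 its libraries, at 66.7, 57.6 and 68.2 CPM, overlapped the controls. Tomm40l, a paralog of the channel, fell with shAD4-2 (log2 fold change -0.22), a call lost without shAD4-2 replicate 1 or without control replicate 3, where the change was -0.14. Tomm34, a cytosolic partner of precursors, passed in neither comparison.

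**Figure D2:**
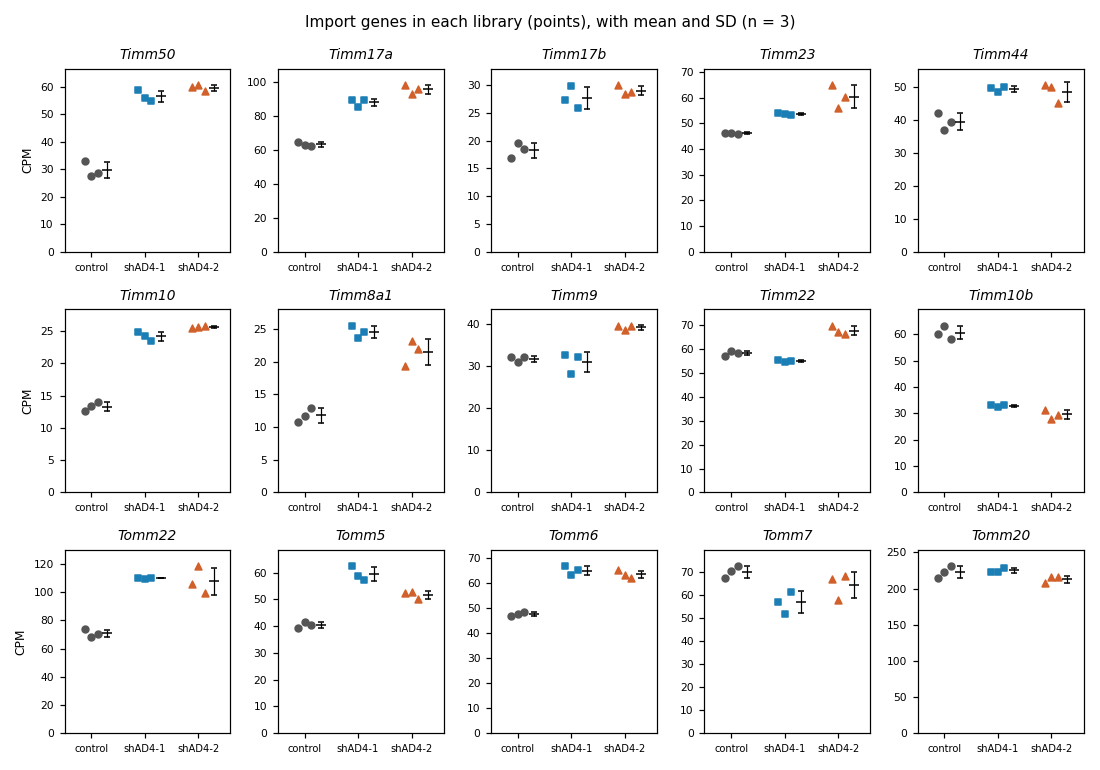
CPM (y axes, from 0) of 15 import genes in each of the 9 libraries, circles for control, squares for shAD4-1 and triangles for shAD4-2, with mean and SD (n = 3). Timm50, Timm10, Timm8a1 and Tomm22 show hairpin libraries above all control libraries, Timm10b shows them below, and Tomm20 shows overlapping groups between control and either hairpin.

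Per length, the most abundant transcripts of all 72 were the adenine nucleotide translocases, the phosphate carrier and the porins. In control, Slc25a4 stood at 333 ± 4 FPKM, Slc25a5 at 303 ± 24, Slc25a3 at 258 ± 7.8, Vdac2 at 207 ± 3.6, Vdac1 at 201 ± 9.3 and Vdac3 at 159 ± 5 FPKM. The control libraries of Slc25a4 and Slc25a5 overlapped, and Vdac2 and Vdac1 differed by less than the spread of Vdac1. With shAD4-1, Slc25a3 came second by its mean of 306 FPKM, above Slc25a5 at 235 FPKM. Its libraries (299 to 313.6 FPKM) overlapped those of Slc25a4 (310.3 to 315.3 FPKM). Vdac1 (226.4 to 236.8 FPKM) and Vdac2 (224.6 to 230.2 FPKM) overlapped too. The order changed further with shAD4-2, where Slc25a3 came first at 347 FPKM, with Slc25a4 next at 269.5 FPKM and Slc25a5 at 223 FPKM, below Vdac2 and overlapping Vdac1 (220.7 to 229.2 FPKM). Slc25a45, Slc25a40, Slc25a34 and Slc25a47 were at 1.48 to 1.73 FPKM in control. The FPKM of Slc25a40 divides its reads by a length of 26119 bases. That length was 2562 bases for Slc25a45, 2790 for Slc25a34 and 1712 for Slc25a47. The low FPKM of Slc25a40 therefore does not mean few reads, and its CPM is given below.

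Of the 6 tested adenine nucleotide, phosphate and magnesium-ATP carriers, 1 rose and 2 fell with shAD4-1, and 1 rose and 4 fell with shAD4-2. So 50% and 83.3% of these carriers passed, where 65% and 69% of all tested genes did. The one that rose was Slc25a3, the phosphate carrier that supplies ATP synthase. It gave 442, 419.6 and 431 CPM in control, 546, 522 and 531 CPM in shAD4-1 and 628, 594 and 588 CPM in shAD4-2. The 3 groups did not overlap, and the log2 fold changes were 0.31 and 0.49 (adjusted p = 9.02e-07 and 1.53e-09). Slc25a5 and Slc25a4, the ADP/ATP translocases, did not rise. Slc25a5 was at 415, 369.8 and 363 CPM in control, 305, 312 and 308 CPM in shAD4-1 and 294, 296 and 289 CPM in shAD4-2, lower in each hairpin library than in each control library (log2 fold changes -0.31 and -0.38, adjusted p = 5.59e-06 and 3.24e-07). Control replicate 1 was the highest of the 9. Slc25a4 was at 432 ± 3.88 CPM in control and 423 ± 3.5 in shAD4-1, with a log2 fold change of -0.03 (95% interval -0.09 to 0.03), and at 364 ± 2.58 CPM in shAD4-2, where it fell by 0.25 on the log2 scale.

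The FPKM ratio of Slc25a3 to Slc25a5 was 0.803, 0.855 and 0.896 in control, 1.35, 1.26 and 1.3 in shAD4-1 and 1.61, 1.52 and 1.53 in shAD4-2. Per length, the phosphate carrier thus went from below to above Slc25a5. Against the other translocase, Slc25a4, its FPKM was lower in control, overlapped in shAD4-1 and was higher in shAD4-2. The FPKM ratio of Slc25a4 to Slc25a5 was 1.1 ± 0.079, 1.33 ± 0.014 and 1.21 ± 0.017. RefSeq also lists a pseudogene of Slc25a5, and how its reads were counted is not known. Among the calcium-regulated magnesium-ATP carriers, Slc25a25 fell with either hairpin, from 26.8 ± 0.469 to 22.1 ± 2.03 and 19.2 ± 1.3 CPM, and Slc25a23 with shAD4-2, from 38.6, 42.6 and 39 CPM in control to 33.8, 31.5 and 32.9 CPM. Slc25a24 passed in neither comparison.

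All 3 porins rose with shAD4-1 and all 3 with shAD4-2, where 32.7% and 34.2% of all tested genes were called higher. Vdac1, the most studied of them, rose from 468 ± 22.9 to 559 ± 13.4 and 548 ± 11.3 CPM, by 1.19-fold and 1.17-fold. Vdac2, which restrains the apoptosis effector BAK, rose from 336 ± 7.01 to 384 ± 4.32 and 429 ± 4.65 CPM, by 1.14-fold and 1.28-fold. Vdac3 rose from 221 ± 7.87 to 286 ± 1.15 and 273 ± 6.73 CPM, by 1.30-fold and 1.24-fold (adjusted p = 5.69e-08 and 5.99e-07). For each of the 3, no hairpin library overlapped the controls. Summed, the porins stood at 567 ± 14, 656 ± 7.6 and 671 ± 12 FPKM.

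**Figure D3:**
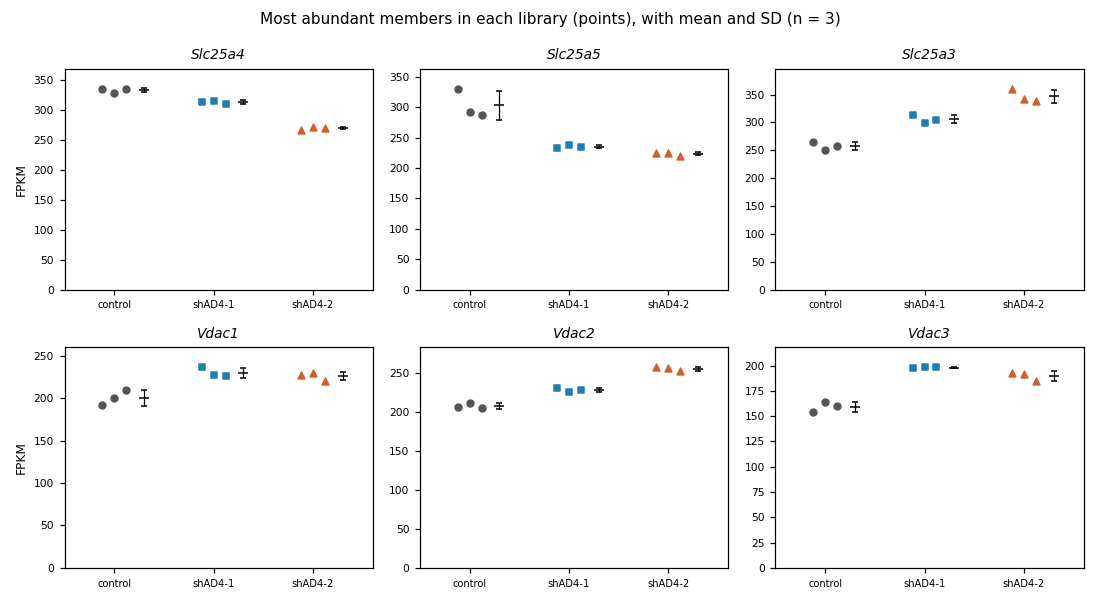
FPKM (y axes, from 0) of the 6 most abundant genes of the set in each library, circles for control, squares for shAD4-1 and triangles for shAD4-2, with mean and SD (n = 3). FPKM is scaled to raw totals, not TMM, so Slc25a4 lies lower in shAD4-1 (313 FPKM) than in control (333 FPKM) although its CPM did not pass the threshold.

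Among the 6 carriers of carboxylates, aspartate and glutamate, 2 rose and 1 fell with shAD4-1 and 2 rose and 3 fell with shAD4-2. The shares called were 50% and 83.3%, beside 65% and 69% of all tested genes. The aspartate-glutamate carriers of the malate-aspartate shuttle both rose. Slc25a12 went from 59.7 ± 0.452 to 72.6 ± 3.48 and 76.1 ± 1.58 CPM (log2 fold changes 0.28 and 0.35), and Slc25a13 from 108 ± 5.08 to 126 ± 4.63 and 123 ± 0.939 CPM (0.21 and 0.19). Slc25a11, the 2-oxoglutarate carrier of the same shuttle, was at 100.2 ± 3, 99.4 ± 1.39 and 103 ± 4.08 CPM, with 95% intervals of -0.09 to 0.07 and -0.04 to 0.13 on the log2 scale. It overlaps Rnf167, which was lower with both hairpins.

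Slc25a10, the dicarboxylate carrier that exchanges malate and succinate for phosphate, gave 32.7, 31.4 and 32.8 CPM in control, 20.9, 22.8 and 21.4 CPM in shAD4-1 and 24.6, 26.1 and 22.1 CPM in shAD4-2. The hairpin libraries all lay below the controls and overlapped each other, with log2 fold changes of -0.58 and -0.41 (adjusted p = 6.28e-07 and 2.90e-05). Slc25a1, the citrate carrier that exports carbon for lipid synthesis, and Slc25a22, a glutamate carrier, passed with shAD4-2 alone, at -0.17 and -0.24. The Slc25a1 libraries overlapped, and without control replicate 2 neither gene passed. Slc25a1 was also lost without shAD4-2 replicate 3, and Slc25a22 without control replicate 3 or shAD4-2 replicate 2. Whether these changes differed between the hairpins is given by their direct comparison, which neither passed.

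Of the 8 tested carriers of amino acids, carnitine and glutathione, 4 rose and 1 fell with shAD4-1, and 6 rose and 1 fell with shAD4-2. These make 62.5% and 87.5% called, beside 65% and 69% of all tested genes. Slc25a45 was the carrier with the largest rise, from 5.57, 3.6 and 3.78 CPM in control to 7.84, 7.26 and 7.24 CPM in shAD4-1 and 10.9, 12.6 and 11.8 CPM in shAD4-2. The 3 groups were separate. The log2 fold change was 0.79 (SE 0.14, adjusted p = 9.12e-05) with shAD4-1 and 1.45 (SE 0.14, adjusted p = 3.62e-08) with shAD4-2. Slc25a38, the glycine carrier of heme synthesis, rose from 10.3 ± 1.3 to 14.3 ± 0.337 and 14.8 ± 0.846 CPM. On the log2(FPKM + 1) scale of limma the first of these Slc25a45 changes was 0.51, and those of Slc25a38 were 0.30 and 0.33 against 0.47 and 0.52 in edgeR. The second Slc25a45 change, with shAD4-2, ranged from 1.03 to 1.68 over the alternative fits.

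Slc25a39, the glutathione carrier, was the most abundant of this group at 108 ± 9.8 FPKM in control. Its CPM values were 277, 324 and 331 in control, 397, 381 and 369 in shAD4-1 and 398, 403 and 395 in shAD4-2, with control replicate 1 the lowest, and it rose by 1.23-fold and 1.28-fold. Its paralog Slc25a40 overlapped between groups, at 41.7 ± 1.18, 43 ± 1.86 and 43.6 ± 4.93 CPM. Slc25a29, a carrier of basic amino acids, rose by 0.38 and 0.23 on the log2 scale. Slc25a15, the ornithine carrier of the urea cycle, fell from 24.2 ± 0.691 to 21.2 ± 0.528 and 18.6 ± 1.09 CPM. Slc25a20, which brings in acylcarnitines for fatty acid oxidation, rose with shAD4-2 from 41.7 ± 0.505 to 47.7 ± 0.54 CPM, and Slc25a44, a carrier of branched-chain amino acids, by 0.14. With shAD4-2 the calls of Slc25a29 and Slc25a44 were lost in 7 and 9 alternative fits, and with shAD4-1 that of Slc25a15 was lost in 3, among them without control replicate 2 and without shAD4-1 replicate 3.

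Nucleotide and cofactor carriers gave 4 higher and 1 lower of 9 with shAD4-1 and 3 higher and 4 lower with shAD4-2. This put 55.6% and 77.8% past the threshold, beside 65% and 69% of all tested genes. Slc25a17, the peroxisomal carrier of cofactors, rose from 51.1 ± 1.85 to 67.8 ± 3.47 and 63.6 ± 3.78 CPM. Slc25a32, linked to folate and FAD transport, rose by 1.32-fold and 1.28-fold. Slc25a33, a pyrimidine nucleotide carrier, gave 38.4, 45.4 and 44 CPM in control, 39.5, 36.9 and 37.2 CPM in shAD4-1 and 30.4, 26.2 and 30.1 CPM in shAD4-2. The shAD4-2 libraries lay below all others (log2 fold change -0.56, adjusted p = 1.46e-06), whereas shAD4-1 overlapped control and its call (-0.17, adjusted p = 0.0408) was lost in 7 of the alternative fits. Its relative Slc25a36 and the NAD carrier Slc25a51 fell with shAD4-2, at -0.12 and -0.20. Slc25a26, the S-adenosylmethionine carrier, passed with shAD4-1 at an adjusted p of 0.0475, a call lost in 13 alternative fits. Slc25a16 fell with shAD4-2 by 0.19 on the log2 scale and by 0.12, no longer past the threshold, without shAD4-2 replicate 1. The calls of Slc25a16 and Slc25a36 were also lost without control replicate 2 or shAD4-2 replicate 2, and that of Slc25a36 without shAD4-2 replicate 1.

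The 2 mitoferrins, which carry iron for heme and iron-sulfur clusters, fell with shAD4-2. Slc25a37 went from 101 ± 4.26 to 83.6 ± 0.387 CPM and Slc25a28 from 27.3 ± 3.94 to 19.8 ± 0.779 CPM. With shAD4-1 they stood at 97 ± 1.94 and 22.8 ± 1.79 CPM, and Slc25a28 passed at -0.26, which became -0.16 and was lost without control replicate 3 and was also lost without control replicate 2 or shAD4-1 replicate 3. Of the 3 uncoupling protein-like carriers, Slc25a27 fell from 39.9, 42.2 and 42.2 CPM to 34.1, 32.4 and 35.3 CPM with shAD4-1 and 27.1, 26.3 and 27.9 CPM with shAD4-2, 3 separate groups with log2 fold changes of -0.29 and -0.61. Slc25a30 went from 13.5 ± 1.81 to 11.5 ± 0.534 and 9.34 ± 0.331 CPM. Its shAD4-1 call, at -0.24, was lost in 11 alternative fits and became -0.12 without control replicate 3. Slc25a14 passed in neither comparison.

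The strongest fall of all tested members was that of Slc25a35, a carrier whose substrate is not settled. It gave 38.3, 39.4 and 36.7 CPM in control, 16.8, 15.8 and 17.6 CPM in shAD4-1 and 11.5, 12.4 and 13.3 CPM in shAD4-2. The groups were separate, 2.28-fold and 3.08-fold lower than control (log2 fold changes -1.19 and -1.62, SE 0.07 each, adjusted p = 4.94e-11 and 9.67e-13). Its neighbour Rangrf, which overlaps it over 33 bases in the RefSeq table, was higher, at 2.45 ± 0.411, 5.88 ± 1.03 and 4.15 ± 0.451 CPM. Slc25a34, a close paralog, also fell, from 4.41 ± 0.44 to 2.64 ± 0.52 and 3.06 ± 0.0299 CPM (log2 fold changes -0.74 and -0.53, or -0.44 and -0.33 in limma on log2(FPKM + 1)). Slc25a46, an outer membrane protein of mitochondrial dynamics, fell from 97.8 ± 2.1 to 88.3 ± 3.21 and 86.8 ± 4.27 CPM, the former not past the threshold without shAD4-1 replicate 1. Slc25a47 was at 2.47 ± 0.27, 3.48 ± 0.856 and 3.74 ± 0.298 CPM and passed as higher in each comparison, but with shAD4-1 it did not pass without shAD4-1 replicate 2 (log2 fold change 0.29 against 0.50) or without control replicate 2 or 3. Slc25a43 and Slc25a53 did not pass.

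The mitochondrial pyruvate carrier is a heterodimer, and its subunits moved unequally. Mpc1 gave 32.2, 34 and 32.9 CPM in control, 45.2, 45.1 and 46.6 CPM in shAD4-1 and 42.8, 41.8 and 37.7 CPM in shAD4-2, all hairpin libraries above all controls (log2 fold changes 0.47 and 0.30, adjusted p = 1.08e-06 and 1.39e-04). Mpc2 was at 44 ± 2.91, 47.4 ± 1.1 and 47.8 ± 0.517 CPM, at adjusted p = 0.0906 and 0.0627. Per length Mpc1 was the scarcer subunit in each group, with an Mpc1 to Mpc2 ratio of 0.365 ± 0.025, 0.467 ± 0.004 and 0.414 ± 0.032 in FPKM. RefSeq lists a pseudogene of Mpc1, whose reads may be shared with it.

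**Figure D4:**
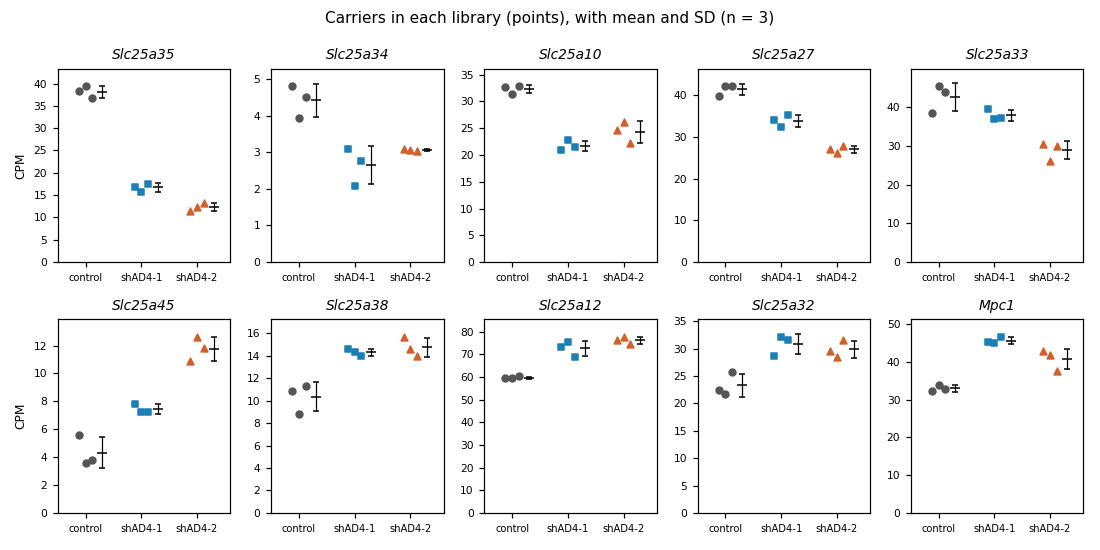
CPM (y axes, from 0) of 9 carriers and Mpc1 in each library, circles for control, squares for shAD4-1 and triangles for shAD4-2, with mean and SD (n = 3). Slc25a35, Slc25a27 and Slc25a45 form 3 separate groups, and Slc25a33 overlaps between control and shAD4-1.

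Compared with each other, the hairpins differed in 18 of the 68 tested genes, 7 higher and 11 lower in shAD4-2, beside 27.4% of all tested genes, 13.4% higher and 14% lower. The split depended on scaling: RLE scaling gave 10 higher and 9 lower. All 9 libraries share an estimate of the spread, and with control replicate 1 left out 29 genes differed. Slc25a45 was the largest rise, at a log2 fold change of 0.66 (SE 0.13, adjusted p = 0.00119). Timm9 at 0.34, Timm22 at 0.30, Slc25a3 at 0.18, Timm23 at 0.17, Vdac2 at 0.16 and Timm17a at 0.12 were the other genes higher in shAD4-2. The lower genes were led by Slc25a35 at -0.43 (adjusted p = 4.07e-04), Slc25a33 at -0.39, Slc25a27 at -0.32, Slc25a30 at -0.30 and Slc25a23 at -0.22, followed by Slc25a4, Slc25a37, Tomm5, Slc25a15, Mpc1 and Slc25a36. None of the differences reached 2-fold, which 0.319% and 1.37% of all tested genes did upward and downward.

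Several of the largest changes against control were not told apart between the hairpins. Timm50 differed by 0.08 (95% interval -0.04 to 0.20) and Timm10 by 0.08 (-0.04 to 0.21). Timm8a1 and Timm10b, at -0.19 and -0.15, had adjusted p = 0.0883 and 0.0628. The calls of Slc25a15, Mpc1, Timm17a and Slc25a30 did not hold in 14, 11, 7 and 7 alternative fits, and that of Timm23 in 3, without shAD4-1 replicate 2 or 3 or shAD4-2 replicate 1. Mpc1 went to -0.10 without shAD4-2 replicate 3. Tomm5 and Slc25a23 were lost without shAD4-1 replicate 1, and Slc25a36 and Slc25a23 without shAD4-2 replicate 2.

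**Figure D5:**
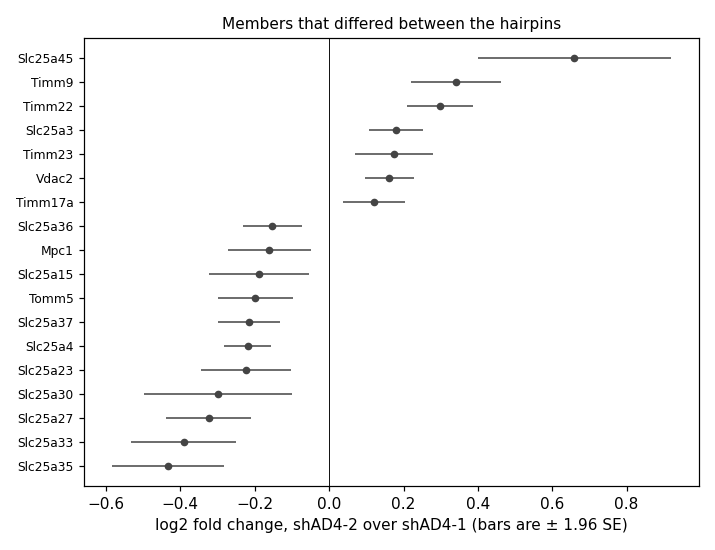
Log2 fold change of shAD4-2 over shAD4-1 (x axis) for the 18 genes that passed the threshold, with points for the estimate and bars for its normal 95% interval. Slc25a45 lies farthest to the right at 0.66 and Slc25a35 farthest to the left at -0.43.

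Genes that work beside these proteins were read from lists set by known function, but chosen with earlier results of these data known. Beside all the counts that follow, 65% of all tested genes passed with shAD4-1, 32.7% higher and 32.3% lower. The shares with shAD4-2 were 69%, 34.2% and 34.8%. Of 10 genes of the import motor and its partners, 6 rose and 3 fell with shAD4-1 and 7 rose and 3 fell with shAD4-2. Hspa9, the matrix Hsp70 that pulls precursors in, rose from 1336 ± 7.14 to 2368 ± 22.6 and 2400.3 ± 56.4 CPM, and Hspe1, the chaperonin partner, from 314 ± 7.22 to 522 ± 2.94 and 546 ± 12.1 CPM. Of 14 presequence and import proteases 6 rose and 6 fell, then 5 rose and 7 fell. Pmpca, the presequence peptidase subunit, rose from 168 ± 3.74 to 222 ± 3.12 and 219 ± 4.82 CPM, and Clpp, a matrix protease, fell from 55.8 ± 3.77 to 40.2 ± 1.36 and 38.1 ± 1.42 CPM. Of 9 intermembrane space and outer membrane assembly genes, 7 rose and 2 fell with shAD4-1, and 6 rose and 2 fell with shAD4-2. Chchd4, the oxidoreductase that traps small TIM proteins in the intermembrane space, rose by 1.65-fold and 1.63-fold, and its partner Aifm1 by 1.40-fold and 1.39-fold.

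Cristae and calcium genes moved less evenly. The shares of all tested genes that passed, 65% with shAD4-1 and 69% with shAD4-2, stand beside these counts too. Of 7 MICOS genes 5 rose and 1 fell with shAD4-1 and 3 rose and 1 fell with shAD4-2, among them Chchd3 (log2 fold changes 0.77 and 0.63) and Immt (0.26 and 0.35). Of 7 genes of calcium uptake and its regulation 4 rose and 2 fell with either hairpin, and among them Letm1, an inner membrane cation exchanger, rose by 0.51 and 0.56. Of 13 regulators of mitochondrial biogenesis 9 rose with either hairpin, 1 falling with shAD4-1 and 2 with shAD4-2, among them Ppargc1a, a coactivator, by 1.42 and 1.46, and Tfam, which packages mitochondrial DNA, by 0.84 and 0.95. Of 8 other tested carrier-family genes 4 rose with either hairpin, 1 falling with shAD4-1 and 3 with shAD4-2. Ucp2, an uncoupling protein, was named after its values were seen. It had 32, 31 and 51 reads in control, 2, 11 and 12 in shAD4-1 and 9, 3 and 6 in shAD4-2. Its log2 fold changes in edgeR were -2.20 and -2.54 (adjusted p = 5.10e-04 and 2.02e-04). Over the alternative fits they ranged from -2.54 to -0.53 with shAD4-1 and from -2.86 to -0.57 with shAD4-2. Sfxn5, a sideroflexin, changed by 0.48 and 0.18, the second call being lost in 16 alternative fits, and Mtch2, an outer membrane insertase, by 0.11 and 0.23, the first being lost in 4. Of the 13 mitochondrially encoded genes 12 rose with either hairpin, and ND1, a subunit of complex I, went from 1089, 675 and 592 CPM in control to 2793 ± 147 and 3223 ± 388 CPM, with control replicate 1 the highest control.

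The members mostly share a mitochondrial annotation but not a position in the genome. In the deposited annotation 71 of the 72 carry the term mitochondrion, 59 the mitochondrial inner membrane and 14 the outer membrane. They lie on 20 chromosomes, with no more than 7 on any of them, the largest number on chromosome 11. By the gene spans of the RefSeq annotation, 8 of them overlap another gene that has at least 900 reads. This limits the reading of Timm10b, Tomm6, Slc25a11 and Slc25a25, whose longest overlap with such a gene runs over at least 302 bases.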

How the data were processed

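Per the labels' protocols, libraries of total RNA were made with the VAHTS Universal V6 kit. Per the submitters' processing notes, fastp, HISAT2 and HTSeq were used with GRCm39; the sources used here give no versions or use of strand. The authors deposited whole-number read counts per gene and an FPKM table of the same 9 libraries. The deposited FPKM values follow from the counts: 155616 of 155616 nonzero values imply a whole gene length within 0.001 base. The columns name knockdown groups 1 and 2, matched by number to the hairpins.

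Counts were tested with edgeR 4.0.16 (R 4.3.3): filterByExpr left 13807 genes, TMM scaling, 1 fit over all 9 libraries with group only, glmQLFTest, and Benjamini-Hochberg adjustment over all tested genes. SEs derive from the fold change and its F statistic, and intervals are normal 95% intervals. Replicate numbers did not pair libraries: same-numbered deviations correlated at -0.124 to 0.00225.

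The genes, role groups and lists were chosen with earlier results of these data known, as were the motifs. Named genes were the 8 largest rises and falls per hairpin, the 5 largest each way between hairpins (separate libraries, 5 CPM or more in the higher group), the most abundant per role, and a fixed list of well-known members; further members were named to account for each group. From each neighbouring list the 2 genes with the smallest adjusted p were named. As alternatives, DESeq2 1.42.0, RLE and upper-quartile scaling, other filters, 2 groups only, a replicate block, each library left out, limma 3.58.1 on log2(FPKM + 1) or log2(FPKM + 0.1), protein-coding genes only and, added after seeing the data, no mitochondrially encoded genes and FPKM sums divided by TMM factors were tried. Some genes that the rules select are counted in their groups but not reported by name here.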

Additional observations from a re-analysis of the deposited data

How the results depend on the processing

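No gene named in the report changed direction in a called result under the alternatives run. The count of these genes called ranged from 36 to 43 with shAD4-1 and from 47 to 55 with shAD4-2 when each library was left out in turn. Between the hairpins it was 14 to 29, the highest without control replicate 1, against 18, and 29 when only the 2 groups were compared. The median log2 fold change with shAD4-1, 0.0564, was 0.0474 to 0.0905 with a library left out, and 0.00057, 0.000463 and 0 in limma on log2(FPKM + 1), on log2(FPKM + 0.1) and with no filter. With shAD4-2, 0.0902 became 0.0579 with upper-quartile scaling, 0.123 in DESeq2, 0.102 with no count filter, 0.064, 0.065 and 0.0069 in the same limma fits, 0.0662 with protein-coding genes only and 0.0794 to 0.132 with a library left out. The cause of these shifts was not tested. With the replicate number as a block, 39, 52 and 18 genes were called, although the numbers do not pair the libraries: 0 libraries correlated best with their own number. Over all tested members and the neighbouring genes named, alternatives lost a call 46, 46 and 55 times and added one 27, 20 and 70 times in the 3 comparisons, and left it as it was 1768, 1775 and 1715 times. Depth limits the 4 untested genes and those under 5 CPM.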
